A study of Mus musculus with 51 samples.

Results

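*Mixl1*, *Evx1*, *Gsc*, *Lhx1*, *Mesp1* and *Mesp2* encode transcription factors of the primitive streak and of the mesoderm that leaves it. These 6 genes, taken by symbol from 24538 genes in all 9 deposited expression tables, were followed through Bmp4-driven differentiation of mouse embryonic stem (ES) cells and in cells without *Smad4*, *Eomes*, *T* or both *Eomes* and *T*. In wild-type (WT) cells *Evx1* led on day 2, and *Mixl1*, *Mesp1*, *Gsc* and *Lhx1* reached their highest levels on day 3, when *Mixl1* stood at 15.6 FPKM and *Mesp1* at 5.45 FPKM. On day 3, 5 genes passed FPKM 1, in WT cells alone, and so could not be called higher in knockout (KO) cells. All 5 were called lower in *Eomes* KO, *T* KO and *Eomes*/*T* double KO (dKO) cells alike. Of all examined genes 9.01%, 3.92% and 5.53% were called lower there, and *Mesp1* was listed at 0 in all of these cells. *Mesp2* stayed at or below 0.279 FPKM in every condition.

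RNA was sequenced from 18 of the 51 samples of the series, in 14 groups. F1G4 WT cells were sampled as aggregates before Bmp4 (ES) and after 1, 2 and 3 days in 20 ng/ml Bmp4, with 2 samples at each stage. *Eomes* KO, *T* KO and dKO cells, all of the F1G4 background, were sampled on days 2 and 3, and *Smad4* KO cells with WT cells of their own 129S/SvEvxC57BL/6 line on days 1 and 2, with 1 sample for each line and day, all in Bmp4. The *Eomes* and *T* KO lines lack the promoter and first exon of the targeted gene after double nicking with the Cas9 nickase. The dKO line was made from the *Eomes* KO line, and the *Smad4* KO line is a clone in which Cre removed the floxed first exon. Each group therefore stands for few clones, and all cells had been taken off feeder fibroblasts beforehand.

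In the embryo, Bmp4 from the extra-embryonic ectoderm together with Nodal and Wnt3 induces the primitive streak in the posterior epiblast. Smad4 is the shared partner of the Smad proteins that carry BMP and Nodal signals, and the T-box factors Eomes and T act downstream of these signals in streak cells. Of the 6 genes, *Mixl1* and *Evx1* encode homeodomain proteins of the streak, with *Evx1* marking its posterior part, *Gsc* and *Lhx1* encode homeodomain proteins of the anterior streak and organizer, and *Mesp1* and *Mesp2* encode paired basic helix-loop-helix factors, of which *Mesp1* marks the earliest cardiac progenitors and *Mesp2* is best known from somite formation.

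On GRCm38, *Mixl1* lies at chr1:180693043-180697034, *Evx1* at chr6:52313498-52318389, *Lhx1* at chr11:84517975-84525534 and *Gsc* at chr12:104471209-104473236. *Mesp1* (chr7:79792241-79793590) and *Mesp2* (chr7:79810727-79813431) are neighbours on opposite strands with 17136 bases between them. RefSeq promoter windows (250 bases before to 50 after the start site, GRCm38.p6) were at hand for 5 of the 6 genes, all but *Mixl1*. The *Evx1* and *Mesp1* windows are shown as examples. Both genes stood far lower on day 3 in cells without *Eomes*, *T* or both. So did *Gsc* and *Lhx1*, whose windows are not printed and hold no T-box half-site, as given below. On day 2 *Mesp1* had no more than 2 fragments in WT or in these KO cells, so of the printed pair only *Evx1* could be compared there. The bases before the start site are printed 5′ to 3′ on the strand of the gene, *Evx1* from chr6:52313248-52313497 (+ strand) and *Mesp1* from chr7:79793591-79793840 (− strand), with T-box half-sites (AGGTGT or ACACCT) and Tcf/Lef matches (CTTTGA or TCAAAG) in capitals.
Evx1: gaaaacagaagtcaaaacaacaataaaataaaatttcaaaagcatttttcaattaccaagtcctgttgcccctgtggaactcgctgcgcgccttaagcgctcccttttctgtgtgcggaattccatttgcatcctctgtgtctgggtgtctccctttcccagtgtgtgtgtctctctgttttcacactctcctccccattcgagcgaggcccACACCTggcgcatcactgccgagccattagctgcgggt
Mesp1: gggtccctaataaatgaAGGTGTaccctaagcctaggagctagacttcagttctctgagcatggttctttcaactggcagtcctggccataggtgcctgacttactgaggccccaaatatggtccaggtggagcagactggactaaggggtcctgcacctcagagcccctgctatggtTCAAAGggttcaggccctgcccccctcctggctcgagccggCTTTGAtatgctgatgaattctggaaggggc

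The start site of *Mesp1* is followed by a second T-box half-site, and the *Mesp2* window holds its only one after the start site. Both are shown as 30-base stretches, with the half-site in capitals, *Mesp1* from chr7:79793566-79793595 (− strand) and *Mesp2* from chr7:79810744-79810773 (+ strand).
Mesp1: ggggcccgcttcACACCTagggctcaggat
Mesp2: gggtcagaatccACACCTctgcaaatgggc

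Counted from the start site, the half-sites began at −38 in *Evx1*, −233 and +8 in *Mesp1* and +30 in *Mesp2*, and none was in the *Gsc* and *Lhx1* windows. A T-box half-site on either strand was present in 13.7% of all 32851 promoter windows. The Tcf/Lef matches of *Mesp1* began at −72 and −31, the other 4 windows held none, and 16.0% of all windows held this motif. A Foxh1 match (AATNCACA, in 3.60% of all windows) was found in *Mesp2* at +25, where it overlaps the T-box half-site. The GC-rich Smad motif GGCGCC (11.9% of windows) was in none of the 5, and the Smad box CAGAC, present in 49.6% of windows, was at −111 and +22 in *Evx1*, −117 in *Mesp1* and −60 in *Lhx1*. These matches describe letters and not binding, and enhancers were not examined here.

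The tables give a single FPKM value (fragments per kilobase of transcript, scaled to the fragments mapped) for each gene and condition, so there is no spread between replicates and no test. FPKM times transcript length gave whole multiples of the value of 1 fragment for 91.7 to 93.4% of low values (to within 1%) in the 10 KO and *Smad4*-line columns, which showed 1 such value each. The F1G4 WT columns of the time course showed 2 such values each, and 93.1 to 94.8% of their lowest values were sums of the 2. Each F1G4 WT value is thus a mean of 2 libraries, and each other value is that of 1 library. The fragments behind each value were recovered in this way, and 95% intervals from them (exact Poisson for a level, exact binomial for a ratio) cover counting error only. Genes that passed FPKM 1 in either group of a comparison were examined, and those with a log2 ratio above 1 or below −1 were called higher or lower. For scale, the fragments recovered for *Evx1* in F1G4 WT cells on day 2 were 527 in every table that holds these cells.

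FPKM sums ran from 401510 to 608585 over the columns, and 10416 to 11248 genes stood above FPKM 1. *T* was 6.64 FPKM in *T* KO cells on day 2 against 44.8 in WT and 3.00 against 323 on day 3, and *Eomes* was 2.42 against 9.42 and 0.276 against 20.3 FPKM in *Eomes* KO cells on the same days. In *Eomes* KO cells *T* was 22.3 against 43.1 FPKM on day 2 and 4.46 against 334 on day 3. In *T* KO cells *Eomes* was 24.7 against 9.81 FPKM on day 2 and 4.83 against 19.6 on day 3. On day 3 each single KO line was thus low in both factors, and the part of either factor alone was not tested. *Smad4* FPKM was 39.4 in its KO and 33.8 in WT on day 1 and 46.8 against 39.3 on day 2, and the value of the whole gene does not read the deleted exon. Of 7 fibroblast markers, *Col1a1*, *Col1a2*, *Col3a1* and *Lum* stayed at or below FPKM 1 throughout, *Dcn* was called higher in *Smad4* KO on day 2 (2.02 FPKM against 0 in WT), *Postn* was called higher in *Eomes* KO on day 3 (1.46 against 0.496) and *Thy1* was called in no KO comparison, with list sums of 0.600 to 3.50 FPKM in WT and 1.66 to 5.36 in KO columns. Of 5 endoderm markers only *Foxa2* passed FPKM 1 (sums 0.339 to 5.17 in WT and 0.267 to 2.99 in KO columns). The 7 pluripotency markers summed to 634 to 2013 FPKM in WT and 400 to 1225 FPKM in KO columns. In the T-box KO lines none was called on day 3, and on day 2 *Sox2* was called higher in *Eomes* KO and *T* KO and *Esrrb* in *T* KO.

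In the WT time course the question was when each factor appears. *Evx1* FPKM in ES cells was 0.0620, followed by 0.589, 3.50 and 4.92 on days 1, 2 and 3, from about 9, 83, 527 and 784 fragments. The log2 ratio was 2.57 from day 1 to day 2 (95% counting interval 2.24 to 2.92) and 0.49 from day 2 to day 3 (0.33 to 0.65). *Evx1* was thus near its day 3 level by day 2, though still below it, ahead of *Mixl1*, *Mesp1*, *Gsc* and *Lhx1*.

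*Mixl1* FPKM was 0.267, 0.451, 1.13 and 15.6 at the same stages. Its log2 ratio was 1.32 from day 1 to day 2 (0.83 to 1.80) and 3.80 from day 2 to day 3 (3.54 to 4.06). On day 3 it was the highest of the 6 genes, at rank 4410 of 24534 genes.

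*Mesp1*, the cardiac progenitor factor, was listed at 0 in ES cells, at 0.175 FPKM on day 1, again at 0 on day 2 and at 5.45 FPKM on day 3. The day 1 value rests on about 9 fragments and the day 3 value on about 325. Against a floor of 3 fragments over both day 2 libraries, *Mesp1* was at least 102-fold higher on day 3. *Mesp1* thus went from undetected to the level of *Evx1* between consecutive days, and the 95% counting intervals of *Mesp1* (4.87 to 6.08 FPKM) and *Evx1* (4.58 to 5.28 FPKM) on day 3 overlap.

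For *Gsc* the 4 stages gave 0.0781, 0.0182, 0.401 and 2.80 FPKM, and for *Lhx1* 0, 0.0141, 0.0292 and 1.26 FPKM. From day 2 to day 3 the log2 ratio was 2.80 for *Gsc* (2.17 to 3.45) and 5.43 for *Lhx1* (4.38 to 6.98), the latter from about 6 fragments on day 2. The order of the levels on day 3 was *Mixl1*, *Mesp1*, *Evx1*, *Gsc*, *Lhx1* and *Mesp2*, and only *Mesp1* and *Evx1*, neighbours in it, had overlapping counting intervals.

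*Mesp2* FPKM was 0.0790, 0.279, 0.142 and 0.0391 from ES cells to day 3, on about 8, 26, 14 and 4 fragments. It had its highest value on day 1, in the opposite order to *Mesp1* between days 2 and 3, and never reached the FPKM of 1 at which a gene is examined.

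Between ES cells and day 1 none of the 6 genes was examined, and 7.7% of all examined genes were called higher. From day 1 to day 2, 2 members were called higher (*Mixl1* and *Evx1*) against 7.18% of all genes. Both passed FPKM 1 on day 2 alone, so neither could be called lower. Between days 2 and 3, 4 members were called higher (*Mixl1*, *Gsc*, *Lhx1* and *Mesp1*) of 5 examined, against 6.14% of all genes called higher and 4.06% called lower. Of these, *Gsc*, *Lhx1* and *Mesp1* passed FPKM 1 on day 3 alone, so they could not be called lower. In bulk RNA, more cells of a type and more RNA per cell cannot be told apart.

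**Figure D1:**
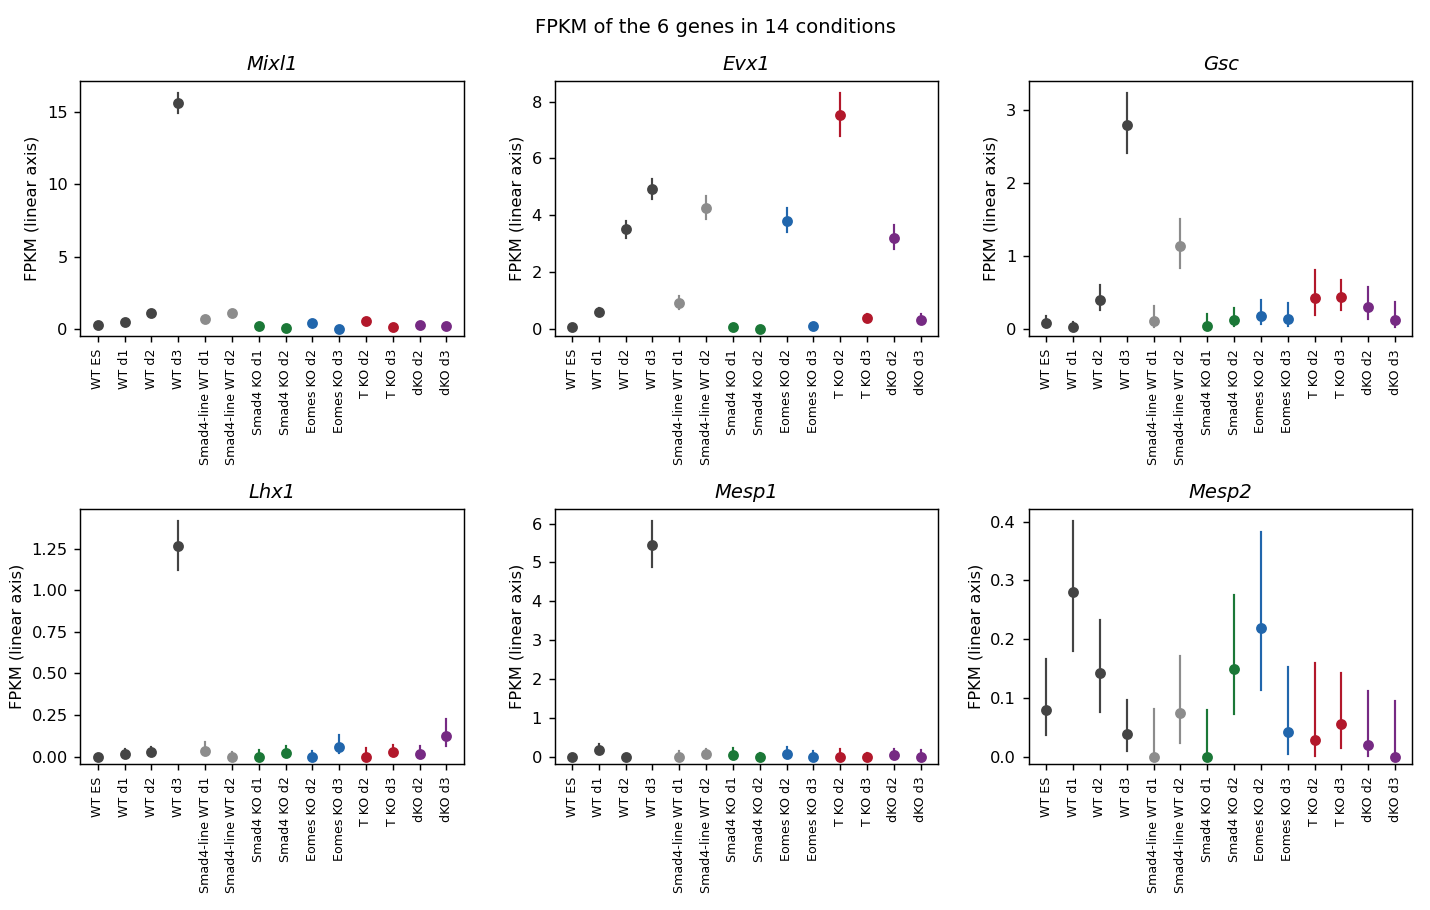
FPKM of each of the 6 genes (one panel each, linear axes that differ between panels) in 14 conditions (d, day), where a point is the deposited value and a line its 95% counting interval. Black marks F1G4 WT, grey WT of the *Smad4* line, green *Smad4* KO, blue *Eomes* KO, red *T* KO and purple dKO. *Mixl1*, *Gsc*, *Lhx1* and *Mesp1* stand highest in WT on day 3, *Evx1* in *T* KO on day 2 at 7.53 FPKM, and *Mesp2* at 0.279 FPKM on day 1.

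WT cells of the *Smad4* line gave a second view of the early stages. *Evx1* was 0.898 FPKM on day 1 and 4.25 on day 2, and *Mixl1* 0.647 and 1.07 FPKM. *Gsc* went from 0.108 to 1.14 FPKM. Compared with F1G4 WT cells, in another table, the log2 ratio on day 2 was 0.28 for *Evx1* (0.09 to 0.47), −0.08 for *Mixl1* (−0.49 to 0.32) and 1.50 for *Gsc* (0.75 to 2.24). *Gsc* was the only member called between the WT lines on day 2, where 5.15% of all genes were called in either direction. It passed FPKM 1 in the *Smad4* line alone, so it could not be called lower there. No member was examined on day 1, where 10.8% of all genes were called. *Mesp2*, on about 26 fragments in F1G4 WT cells on day 1, had none in the *Smad4* line (at least 4.26-fold lower against the floor of 3 fragments), while *Mesp1* had 0 and 2 fragments there on days 1 and 2.

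The next question was how levels differ once *Smad4*, the shared partner in BMP and Nodal signalling, is removed. *Eomes* was 1.73 FPKM in *Smad4* KO on day 2 against 24.8 in WT, and *T* was 0.891 against 26.6 FPKM. The part of BMP or Nodal signalling itself, or of the lower *Eomes* and *T*, in the levels of the members was not tested. On day 2, *Evx1*, *Mixl1* and *Gsc*, the 3 members examined, were all called lower, against 3.21% of all genes (2.56% were called higher). All 3 passed FPKM 1 in WT alone, so they could not be called higher. *Evx1* FPKM was 4.25 in WT and 0.0101 in KO cells, which is 431 fragments against 1, a log2 ratio of −8.72 (−14.03 to −6.24). For *Mixl1* the values were 1.07 and 0.0506 FPKM, 86 fragments against 4, with a log2 ratio of −4.40 (−6.31 to −2.99).

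*Gsc* was 1.14 FPKM in WT and 0.123 in *Smad4* KO cells, from 47 and 5 fragments (log2 ratio −3.20, −4.89 to −1.88). *Evx1* had the largest difference of the members in this comparison. *Lhx1*, *Mesp1* and *Mesp2* were under 0.15 FPKM in both groups on day 2 (10 fragments or fewer), and a difference was not detectable at this depth. In the same comparison the pluripotency markers *Nanog* (26.8 FPKM against 121), *Zfp42*, *Esrrb* and *Dppa3* were called lower and *Sox2* higher (120 against 35.2), and their part in the result was not tested.

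On day 1 no member reached FPKM 1 in the *Smad4* table, where 2.41% of all genes were called lower and 2.36% higher. The values already differed for *Evx1*, with 0.898 FPKM in WT and 0.0728 in KO cells (log2 ratio −3.62, −5.30 to −2.32), and for *Mixl1*, with 0.647 and 0.219 FPKM (−1.56, −2.64 to −0.58). Both intervals lie below 0. *Nanog* was called lower as well, at 18.1 FPKM against 65.2. *Gsc* had 3 fragments in WT and 1 in KO cells (−1.60, −7.32 to 2.04).

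On day 2 the *Eomes* KO, *T* KO and dKO cells were each compared with F1G4 WT cells, and the 3 comparisons share these WT libraries. *Mixl1* was called lower in every one of them, from 1.11 FPKM in WT to 0.416 in *Eomes* KO (log2 ratio −1.42, −2.08 to −0.82), from 1.16 to 0.507 in *T* KO (−1.19, −1.94 to −0.53) and from 1.11 to 0.239 in dKO cells (−2.22, −3.13 to −1.43). In each of these comparisons *Mixl1* passed FPKM 1 in WT alone, so it could not be called higher. The intervals of all 3 lie below 0, and only that of the dKO lies wholly below −1.

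*Evx1* did not follow *Mixl1* on day 2. In *Eomes* KO cells it was 3.80 FPKM against 3.47 in WT (log2 ratio 0.13, −0.07 to 0.34), and in dKO cells 3.22 against 3.46 (−0.11, −0.33 to 0.12). In *T* KO cells *Evx1* was called higher, at 7.53 FPKM against 3.61 in WT (1.06, 0.87 to 1.25), its highest value in the series.

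*Gsc* on day 2 was 0.398 FPKM in WT and 0.180 in *Eomes* KO, 0.415 and 0.424 in the *T* KO table, and 0.398 and 0.299 in the dKO table, with 6, 9 and 9 fragments in the KO cells. *Lhx1* and *Mesp1* had no more than 2 fragments in any library of the T-box KO lines on day 2. *Mesp2* had 12 fragments in *Eomes* KO and 1 each in *T* KO and dKO cells, against about 14 in WT, and its intervals include a log2 ratio of 0 in *Eomes* KO and *T* KO and end at −0.04 in the dKO.

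Of 2 members examined on day 2, *Mixl1* was thus called lower in each line and could not be called higher. The shares of all genes called lower were 4.17% in *Eomes* KO, 9.93% in *T* KO and 4.5% in dKO cells. The single call higher in *T* KO cells stands beside 5.7% of all genes, and the shares called higher were 3.35% in *Eomes* KO and 3.48% in dKO cells.

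By day 3 the picture differed. *Mixl1* FPKM was 0.0179 in *Eomes* KO cells against 16.3 in WT, with 15.8 and 0.105 in the *T* KO table, and 16.2 and 0.173 in the dKO table. These are 1, 9 and 8 fragments in the KO cells against about 1980 in WT. The log2 ratios were −9.83 (−15.14 to −7.35), −7.23 (−8.36 to −6.30) and −6.55 (−7.77 to −5.57), the largest differences of any member with a ratio in these tables.

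*Mesp1* was listed at 0, with no fragment, in all 3 KO lines on day 3, against 5.68, 5.49 and 5.65 FPKM in the WT columns of the *Eomes* KO, *T* KO and dKO tables. Set against a floor of 3 fragments in each KO library, *Mesp1* was at least 49.8-fold lower in *Eomes* KO, 73.8-fold lower in *T* KO and 41.1-fold lower in dKO cells. No order among the lines can be read from these bounds, which follow the depth of each library.

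*Evx1* stood at 0.0854 FPKM in *Eomes* KO cells against 5.13 in WT (log2 ratio −5.91, −7.36 to −4.78), 4.96 and 0.372 in the *T* KO table (−3.74, −4.24 to −3.28), and 5.11 and 0.326 in the dKO table (−3.97, −4.71 to −3.32). The interval of *Eomes* KO lies below those of both *T* KO and the dKO, which lacks *Eomes* too, and each KO value is that of 1 library. In *T* KO cells, 40 fragments of *Evx1* remained against about 783 in WT.

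The organizer-type genes were lower as well. *Gsc* was 2.94 FPKM in WT and 0.140 in *Eomes* KO (−4.40, −6.29 to −3.02), 2.83 and 0.433 in *T* KO (−2.71, −3.47 to −2.02), and 2.92 and 0.126 in dKO cells (−4.53, −6.82 to −2.96). *Lhx1* was 1.32 FPKM in WT and 0.0596 in *Eomes* KO (−4.47, −5.94 to −3.34), 1.27 and 0.0292 in *T* KO (−5.45, −6.94 to −4.07), and 1.31 and 0.126 in dKO cells (−3.38, −4.34 to −2.46). For both genes the intervals of the 3 lines overlap.

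*Mesp2* had 2 fragments in *Eomes* KO, 4 in *T* KO and 0 in dKO cells on day 3, against about 4 in WT, and no difference was detectable at this depth. In each line, 5 members were called lower of 5 examined, against 9.01% of all genes in *Eomes* KO, 3.92% in *T* KO and 5.53% in dKO cells, while 7.39%, 2.12% and 5.51% were called higher. These 5 passed FPKM 1 in WT alone, with no KO value above 0.433 FPKM (*Gsc* in *T* KO), so they could not be called higher. All 5 intervals in each line lie wholly below −1. The comparisons share the WT libraries of day 3, so they are not independent of each other.

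**Figure D2:**
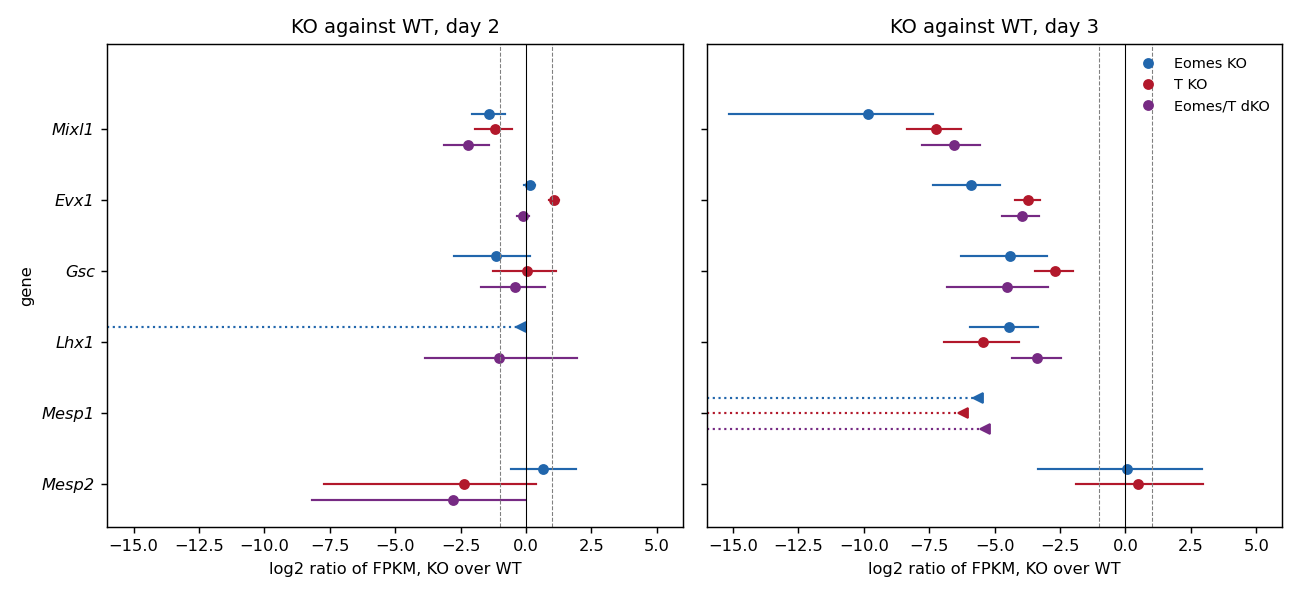
Log2 ratio of FPKM, KO over WT, for the 6 genes on day 2 (left) and day 3 (right). Points are the ratios, lines their 95% counting intervals, and arrowheads mark the bound set by 3 fragments where a KO value is 0, with dashed lines at −1 and 1 and no symbol where no ratio or bound could be given. On day 2 *Evx1* lies between −0.11 and 1.06, and on day 3 all members but *Mesp2* lie below −2.

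The same values can be read within a line, from day 2 to day 3, with the KO columns taken from different tables. In WT cells *Mixl1*, *Gsc*, *Lhx1* and *Mesp1* were called higher on day 3 than on day 2. In the KO lines only *Evx1* passed FPKM 1, and on day 2 alone, so no member could be called higher. Of all genes, 14.3% were called higher in *Eomes* KO, 12.6% in *T* KO and 8.59% in dKO cells.

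*Evx1*, the only member examined, was called lower in each KO line, beside 10.1%, 10% and 3.13% of all genes. It went from 3.80 to 0.0854 FPKM in *Eomes* KO (log2 ratio −5.48), from 7.53 to 0.372 in *T* KO (−4.34) and from 3.22 to 0.326 in dKO cells (−3.30), where WT cells had 3.50 and 4.92 FPKM. *Mixl1*, below FPKM 1 on both days, went from 27 fragments to 1 in *Eomes* KO, from 21 to 9 in *T* KO and from 14 to 8 in dKO cells. *Lhx1* was at 0, 0 and 0.0142 FPKM on day 2 and at 0.0596, 0.0292 and 0.126 FPKM on day 3 in cells without *Eomes*, *T* or both, against 1.26 in WT.

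**Figure D3:**
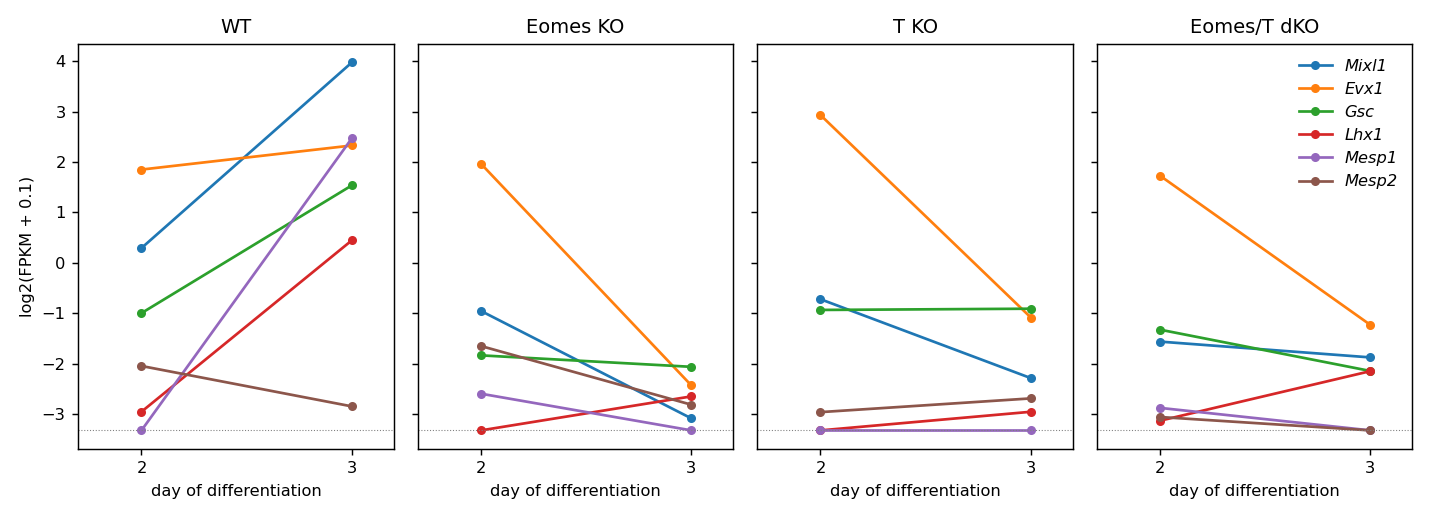
Level of each gene on days 2 and 3, as log2(FPKM + 0.1), in WT (time course), *Eomes* KO, *T* KO and dKO cells, with the dotted line at a value of 0 FPKM. Only in the WT panel do *Mixl1*, *Gsc* and *Mesp1* end well above their start, and *Evx1* drops in the KO panels, from 7.53 to 0.372 FPKM in *T* KO cells.

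The wider streak programme was described with 20 streak and nascent mesoderm genes. From day 2 to day 3 in WT cells 13 of its 18 examined genes were called higher and 1 lower, against 6.14% and 4.06% of all genes. The median log2 ratio (pseudocount 0.1) was 1.76 against 0.01 over all genes. *Msgn1*, a relative of the Mesp factors in paraxial mesoderm, went from 0 to 21.6 FPKM, and *Rspo3*, an enhancer of WNT signalling, from 1.22 to 17.5 FPKM. *Tbx6* and *Snai1* stayed below FPKM 1.

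In *Smad4* KO cells 8 of 12 examined streak genes were called lower and 2 higher on day 1. On day 2, 10 of 12 were called lower, with a median of −3.81. Of all genes, 2.41% were called lower and 2.36% higher on day 1, and 3.21% and 2.56% on day 2. *Fgf8*, a streak growth factor, was 0.154 FPKM against 19.8 in WT on day 2, and *Tdgf1*, the Nodal co-receptor, 3.30 against 187 FPKM. *Mixl1*, *Evx1* and *Gsc* stood among genes that differed in the same direction.

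On day 2 the calls in this list went in both directions in the T-box KO lines, with 3 lower and 2 higher of 14 examined in *Eomes* KO, 2 lower and 4 higher of 12 in *T* KO, and 4 lower and 3 higher of 13 in dKO cells. The lower calls include the deleted genes, which are in the list: *Eomes* in *Eomes* KO, *T* in *T* KO and both in dKO. The medians, with the deleted genes included, were −0.07, 0.19 and −0.19. The shares of all genes called lower and higher were 4.17% and 3.35%, 9.93% and 5.7%, and 4.5% and 3.48%. *Cdx2*, a posterior homeobox gene, was among the higher genes, at 3.65, 3.76 and 3.66 FPKM in the KO lines against 0.610, 0.634 and 0.609 FPKM in WT. *Evx1* in *T* KO cells was thus not alone in standing higher. *Eomes* itself was 24.7 FPKM in *T* KO cells against 9.81 in WT on that day.

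On day 3 the same list gave 16 lower of 18 examined in *Eomes* KO, 14 lower and 1 higher in *T* KO, and 11 lower in dKO cells, with medians of −2.91, −1.87 and −1.88 against −0.04, −0.01 and −0.03 over all genes. Of all genes, 9.01%, 3.92% and 5.53% were called lower and 7.39%, 2.12% and 5.51% higher. *Eomes* and *T*, which include the deleted genes, are among the lower genes in each line. *Wnt3a*, *Msgn1*, *Pdgfra* and *Rspo3*, also among them, did not pass FPKM 1 in these KO cells, so they could not be called higher. *Msgn1* was listed at 0 in each of the 3 lines, as was *Mesp1*, against 21.8 to 22.5 FPKM in WT. *Rspo3* was 0.171, 0.0335 and 0.309 FPKM in cells without *Eomes*, *T* or both against 18.2, 17.6 and 18.1 in WT.

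**Figure D4:**
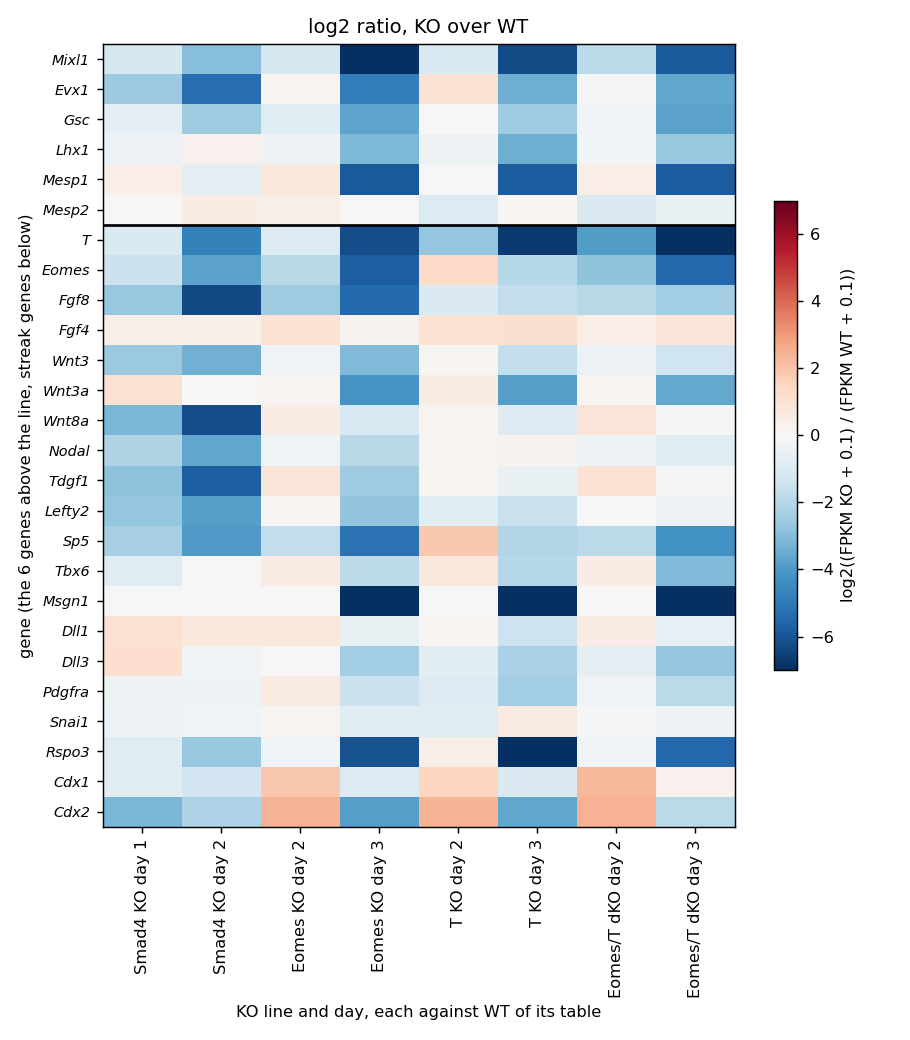
Log2 ratio of KO over WT, with a pseudocount of 0.1, for the 6 genes (above the line) and 20 streak genes (below) in the 8 KO comparisons. Blue is lower and red higher in KO cells, and the colour scale ends at −7 and 7. *Mixl1*, *Mesp1*, *Msgn1* and *Rspo3* are dark blue in all 3 day 3 columns, while *Evx1* and *Cdx2* are pale or red on day 2 of the T-box KO lines.

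Of 11 anterior streak and organizer genes, the setting in which *Gsc* and *Lhx1* are best known, *Chrd*, *Cer1*, *Sox17* and *Shh* never passed FPKM 1. On day 3, *Foxa2*, a pioneer factor of endoderm and node, was 0.0791 FPKM in *Eomes* KO against 4.71 in WT and 0.310 against 4.68 in dKO cells, whereas it was not called in *T* KO. *Fst*, which encodes the activin antagonist follistatin, was 2.35, 3.80 and 8.27 FPKM in cells without *Eomes*, *T* or both against 181, 175 and 181 FPKM in WT. *Lefty1*, a Nodal antagonist, was called lower in *Eomes* KO (4.55 against 14.9 FPKM) and higher in *T* KO (39.1 against 14.4) and dKO cells (39.4 against 14.8). In all, 3 of 6 examined genes were called lower in *Eomes* KO, and 2 lower and 1 higher of 6 in *T* KO. In dKO cells 2 were called lower and 3 higher of 7. The medians were −0.91, −0.39 and 0.30 in the same order. Of all genes, 9.01%, 3.92% and 5.53% were called lower and 7.39%, 2.12% and 5.51% higher.

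Among 13 signals and partners that act on these genes or with their products, *Foxh1*, *Smad1*, *Smad2*, *Smad5*, *Ctnnb1*, *Tcf7l1* and *Ldb1*, which encodes the cofactor of Lhx1, were called in none of the 8 KO comparisons. In *Smad4* KO cells on day 2, 3 of 12 examined were called lower, against 3.21% of all genes. They were *Tdgf1*, *Nodal* (2.53 FPKM against 32.4) and *Wnt3* (1.25 against 13.7). *Wnt3* was lower on day 3 too, at 3.00, 7.47 and 9.72 FPKM in cells without *Eomes*, *T* or both against 26.1, 25.3 and 26.0 in WT. *Nodal* was called lower on day 3 only in *Eomes* KO cells (8.31 against 32.1 FPKM). On day 3 the list had 5 genes lower and 1 higher in *Eomes* KO and 3 lower in *T* KO and in dKO cells, of 13 examined. Beside these stand 9.01%, 3.92% and 5.53% of all genes called lower and 7.39%, 2.12% and 5.51% called higher.

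Of 14 genes linked to *Mesp1* or *Mesp2*, 8 never passed FPKM 1, among them the cardiac genes *Gata4*, *Hand2*, *Nkx2-5* and *Myocd*. On day 3, 2 of 5 examined were called lower in *Eomes* KO and 3 of 5 in *T* KO. In dKO cells 2 of 6 were called lower and 1 higher. The shares of all genes were 9.01%, 3.92% and 5.53% lower and 7.39%, 2.12% and 5.51% higher. *Pdgfra*, a receptor of early mesoderm, was 0.610, 0.249 and 0.443 FPKM in these lines against 1.89, 1.82 and 1.88 in WT, and *Rasgrp3* 0.632, 0.613 and 0.773 FPKM against 1.89, 1.83 and 1.88. Both were higher in WT on day 3 than on day 2, the step at which *Mesp1* appeared. Of 5 close relatives, *Evx2* and *Lhx5* never passed FPKM 1, and *Msgn1* was called lower on day 3 in each line. *Gsc2* was 0.115 FPKM in *Smad4* KO cells against 1.75 in WT on day 1, and *Otx2* 54.2 against 15.3 FPKM on day 2.

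Of 5 neural markers, 1 to 3 were called higher in every KO comparison but *T* KO on day 3. Over all KO comparisons, the share of all genes called higher lay between 2.12% and 7.39%. *Sox3* was called lower in *Eomes* KO on day 3, where 9.01% of all genes were. The sum over *Sox1*, *Pax6*, *Sox3*, *Zic1* and *Hes5* was 2.00 to 3.02 FPKM in WT and 3.56 to 19.5 FPKM in KO columns, with *Zic1* and *Hes5* never above FPKM 1. It was 3.56 FPKM in *T* KO cells on day 3, against 2.96 of WT in that table and with no marker called, and 7.72 and 13.1 FPKM in *Eomes* KO and dKO cells. *Mixl1*, *Evx1*, *Gsc*, *Lhx1* and *Mesp1* were called lower in all of these, and the part of other cell types in their levels was not tested.

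Genes beside the members were read between days 2 and 3 in WT, in *Smad4* KO on day 2, in *T* KO on both days and in *Eomes* KO and dKO on day 3. *Lin9*, 2356 bases from *Mixl1*, was 15.2, 17.2 and 16.9 FPKM in cells without *Eomes*, *T* or both on day 3 against 19.3, 18.6 and 19.2 in WT, and *Aatf*, 4391 bases from *Lhx1*, was called in none of these comparisons. *Wdr93* and *Anpep*, next to the Mesp pair, stood between 0.246 and 1.45 FPKM and were not called. Apart from *Hibadh*, 227841 bases from *Evx1* and called lower in *Eomes* KO on day 3 (10.9 against 37.0 FPKM) and in *T* KO on day 2 (9.75 against 21.8), the neighbours called in these comparisons outside the Mesp pair were the noncoding genes *Lhx1os* and *Evx1os*.

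*Lhx1os*, 126 bases from *Lhx1*, was listed at 0 in *Eomes* KO and dKO cells and at 0.0857 FPKM in *T* KO cells on day 3, against 1.10, 1.10 and 1.07 FPKM in WT. *Evx1os*, whose span shares 1335 bases with *Evx1*, was 0.112, 0.834 and 0.525 FPKM in cells without *Eomes*, *T* or both on day 3 against 6.53, 6.31 and 6.50 in WT. On day 2 of *T* KO, where *Evx1* was 7.53 FPKM against 3.61 in WT, *Evx1os* was 4.91 against 5.05 FPKM (log2 ratio −0.04). The libraries were made strand-specific, but the strand setting of the counting is not given in the sources used here, so reads from the shared stretch may belong to either gene.

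Likeness of pattern was measured as Pearson's r of log2(FPKM + 0.1) over the 14 conditions, which share libraries of 1 study, among 12591 genes, as a description. *Evx1* was most like *Evx1os* (r = 0.98), *Wnt5b* (0.92) and *Btn2a2* (0.91), and *Mesp1* was most like *Msgn1* (0.97), *Apol9a* (0.96) and *Apol9b* (0.96), all of which stood above FPKM 1 in WT on day 3 alone. For *Gsc* they were *Apln* (0.94), *Tmem185a* (0.93) and *Bhlhe22* (0.89), for *Lhx1* *Cd36* (0.97), *Sprr2a3* (0.97) and *Apol9a* (0.94), and for *Mixl1* *Dgkk* (0.91), *Tdrd5* (0.88) and *Dusp2* (0.87). *Apln*, which encodes the apelin peptide, was 25.6 FPKM in WT on day 3 and at most 2.37 in any KO column.

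For *Mesp2*, with no value above 0.279 FPKM, the leading genes were *Ccdc88c* (0.78), *Zcchc2* (0.78) and *Gcn1l1* (0.77). Among the members, r was 0.87 for *Lhx1* with *Mesp1*, 0.83 for *Mixl1* with *Mesp1* and 0.73 for *Mixl1* with *Gsc*, and 0.20 for *Evx1* with *Lhx1*. The values of *Mesp1* and *Lhx1* are at or near 0 in all but 1 condition, on which their r rests. *Mesp2* had r between −0.21 and 0.06 with the other members.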

How the data were processed

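The authors trimmed reads with cutadapt 2.9, aligned them to mm10 with Hisat2 2.1.0 and computed the deposited FPKM with Cuffdiff 2.2.1 (multi-read and bias correction, no effective length correction). The rule for calls (FPKM above 1 and a log2 ratio beyond 1 in size) follows their methods. These values were used as deposited, since FPKM is scaled to library size. ChIP-seq and ATAC-seq samples were not used here.

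The value of 1 fragment in each column was found from FPKM times RefSeq transcript length for genes with a single curated transcript, and checked on simulated columns. Absolute depth is unknown, since Cuffdiff rescales libraries. *Lhx1* values included fractions of a fragment, and *Mesp1* and *Mesp2* values were whole. KO ratios were taken within a table. With 1 value for each condition there was no SD and no test across samples. Figure legends of the study speak of averages over 2 replicates, whereas the labels give 1 sample for each KO and *Smad4*-line condition, and the labels were followed. The WT values differ slightly between tables through the authors' scaling. The rule for named genes was the 6 members, the targeted genes, up to 4 called genes of each list and comparison by size of the ratio, the 3 genes most alike in pattern and the 2 nearest genes on each side. List genes that were never examined or never called, and list genes followed across lines, were named after their values were seen. The members and gene lists were chosen with earlier results of these data known. The fragment recovery was chosen after the values were seen. Calculations used scipy 1.17.1, pandas 2.3.3 and numpy 2.4.6 in Python 3.11.15, with plots from matplotlib 3.10.9.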

Additional observations from a re-analysis of the deposited data

Results flagged for a closer look

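*Evx1* in *T* KO cells stood on opposite sides of WT on the 2 days. The log2 ratio to WT was 1.06 on day 2 (7.53 against 3.61 FPKM) and −3.74 on day 3 (0.372 against 4.96 FPKM), a difference of −4.80. Each *T* KO value comes from 1 library, and the difference was not tested.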

How the results depend on the processing

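Of 251 log2 ratios of the members under the alternatives, 240 stayed called or not called as before, 8 lost a call, 3 gained one and none of the called ratios turned. The 240 include ratios of members not examined that crossed the threshold. *Mixl1* in *Smad4* KO on day 1, for example, went from −1.56 to −0.43 with a pseudocount of 1. With no FPKM minimum, the members called were 5 (*Smad4* KO day 1), 6 (*Smad4* KO day 2), 4 on day 2 in each of *Eomes* KO, *T* KO and dKO, 5 in WT day 1 against ES, 5 in WT day 2 against day 1, and 4 and 3 between the WT lines on days 1 and 2. Above FPKM 5 they were 3, 2 and 3 on day 3 in *Eomes* KO, *T* KO and dKO, 1 in *T* KO day 2, 2 in WT day 3 against day 2, and 0 in *Smad4* KO, *Eomes* KO and dKO day 2, WT day 2 against day 1 and the WT lines on day 2. A pseudocount of 1 left 1 in *Smad4* KO day 2 and in WT day 2 against day 1 and 0 on day 2 in *Eomes* KO, *T* KO, dKO and between the WT lines, with the day 3 calls kept. Rescaling to TPM gave 2 in *Smad4* KO day 1 and 1 in WT day 1 against ES, since TPM lies above FPKM for every gene and so lowers the FPKM minimum. Requiring the counting interval to lie wholly beyond the threshold, an alternative added after seeing the data, left 0 in *Eomes* KO and *T* KO day 2 and 1 in WT day 2 against day 1. Over the 8 KO comparisons, no FPKM minimum moved the calls to 44 from 22 (organizer genes), 55 from 16 (genes linked to *Mesp1* or *Mesp2*), 15 from 5 (relatives), 21 from 2 (fibroblast), 29 from 15 (neural) and 25 from 3 (endoderm), and a pseudocount of 1 to 3 (genes linked to *Mesp1* or *Mesp2*) and 1 (fibroblast). The numbers of members higher on day 3 than day 2 in each line did not move. Of the 3 genes most like each member, by Spearman's rho 1 stayed for *Evx1* and 0 for the others. For *Mixl1* and *Mesp2*, 0 stayed over the 10 F1G4 conditions and 1 with a pseudocount of 1, while 2 or 3 stayed for the other 4 members. No paired analysis was possible because each condition has a single value in each table, and for the same reason no replicate could be left out. Many KO values rest on 10 fragments or fewer, and clones, culture and library cannot be told apart from genotype.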

Other observations

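In F1G4 WT columns, low values were split into the fragments of their 2 libraries. *Mesp1* on day 1 came from 2 and 7 fragments, so both libraries held it. *Mesp2* came from 6 and 2 fragments in ES cells and from 0 and 4 on day 3, and *Gsc* in ES cells from 0 and 4. *Mesp1* had no fragment in either library of ES cells or of day 2.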
